A study of Mus musculus with 6 samples.

Results

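Kinesins are microtubule motor proteins. The mouse genes whose symbol is Kif followed by a digit, together with Kifc1, Kifc2, Kifc3, Klc1, Klc2 and Klc4, were described in mammary tumour cells with a hairpin against CdGAP and with a control hairpin. The annotation held 48 such genes among 41214. Of these, 44 encode motors or light chains, and they fell into 13 mitotic kinesins, 15 transport kinesin heavy chains, 3 light chains, and 13 kinesins of cilia, microtubule ends and other roles. The other 4 were caught by their symbols alone, namely Kif1bp, which encodes a protein that binds kinesin motors, the antisense gene Kif16bos, and the pseudogenes Kif22-ps and Kif4-ps.

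Kinesins use the energy of ATP to walk along microtubules or to take tubulin off microtubule ends. Transport kinesins carry vesicles, mitochondria and protein complexes, mostly towards the plus ends of microtubules, and the conventional kinesin of the Kif5 genes does so as a pair of heavy chains with a pair of light chains that bind cargo. Mitotic kinesins build the spindle, move chromosomes and complete cytokinesis. Their genes are transcribed mainly from late S phase to mitosis, so in a cell population their mRNA is known to follow the share of dividing cells.

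RNA was sequenced from 3 shCdGAP libraries (a short hairpin RNA against CdGAP, genotype label CdGAP KD) and 3 shCTL libraries (a control hairpin, genotype label WT). Both groups are cells explanted from mammary tumours that derive from NMuMG, an epithelial line of mouse mammary gland, and both express ErbB2, a growth factor receptor. The gene Arhgap31 encodes CdGAP, a protein that turns the small GTPases Rac1 and Cdc42 off. The number of hairpins, clones and tumours behind the libraries is not given in the sources used here, so the p-values below reflect how far these 6 libraries vary, which may be technical variation only.

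Assigned fragments totalled 23151324, 22088774 and 25893195 in shCdGAP replicates 1 to 3 and 19176540, 26824249 and 25978281 in shCTL replicates 1 to 3. Levels are given as CPM, counts per 1e+06 fragments after scaling by the trimmed mean of M-values, so 1 count was worth 0.0364 to 0.0516 CPM. Of the luminal markers Krt8, Krt18, Krt19, Cdh1 and Epcam, all 5 reached 1 CPM in at least 1 library, with summed levels of 7172 to 10970 CPM in shCdGAP and 5903 to 8412 CPM in shCTL, although Epcam was at 0 counts in all shCdGAP libraries. Marker sums for basal, fibroblast and endothelial cells did not exceed 7.02 CPM in any shCdGAP library or 6.19 CPM in any shCTL library. The leukocyte markers, of which 1 of 5 reached 1 CPM, summed to 3.77 to 11.4 CPM in shCdGAP and 16.6 to 22.7 CPM in shCTL.

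The library of shCdGAP replicate 1 stood apart from the other 5. In a principal component analysis of the tested genes, the first component held 72% of the variance and separated shCdGAP from shCTL, and the second (21.7%) set this library apart from shCdGAP replicates 2 and 3. Arhgap31, the targeted gene, was at 1.70, 9.16 and 8.21 CPM in shCdGAP, against 13.2, 14.4 and 15.1 CPM in shCTL. All 3 shCdGAP libraries were below all 3 shCTL libraries, and replicate 1 was far below the other 2. The change was not called over all 6 libraries (log2 fold change -1.16 ± 0.55, SE, adjusted p = 0.19, edgeR), and it was called without shCdGAP replicate 1 (log2 fold change -0.71, adjusted p = 0.00407, edgeR).

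Promoter sequence is shown first, and any link between its motifs and the levels across libraries was not tested. Windows of 300 bases around the start of transcription (250 bases before it and 50 from it on) came from RefSeq, build GRCm38.p6, and 35 members had 1 or more. The windows were searched on both strands for TTTGAA, the core of the cell cycle genes homology region that binds cell cycle repressor and activator complexes in late cell cycle promoters, and for CCAAT, the box bound by NF-Y. CAGGTG, the E-box core that Zeb and Snail family repressors bind, was searched as well. Every mitotic member but Kif20a had a window. The 12 transport windows came from 10 genes, since Kif1a and Kif1b had more than 1. Kif5a, Kif5b, Kif13b, Kifc2 and Kifc3 had none. TTTGAA was present in 10 of 12 windows of mitotic kinesins (83.3%), in 1 of 12 windows of transport kinesin heavy chains (8.33%) and in 17.9% of all 32851 windows. That transport window was 1 of those of Kif1a, which had too few counts here to be tested. CCAAT was present in 66.7%, 33.3% and 37.4% of the same sets. Both motifs together were in 7 of the 12 mitotic windows (58.3%), in 0 of the 12 transport windows and in 6.95% of all windows. Among kinesins of cilia, microtubule ends and other roles, 2 of 12 windows held TTTGAA (16.7%), those of Kif26b and Kif27. Both of these also held CCAAT, and the 2 light chain windows held no TTTGAA. The 2 mitotic windows with no TTTGAA were those of Kif18a and of Kif2b, which had no counts here. CAGGTG was in 25% of the mitotic windows, 25% of the transport windows and 20.2% of all windows. A match says only that these letters are in the window.

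The stretches below run from 200 bases before the start to 30 bases from it on, 5′ to 3′ along the gene. Kif11 and Kif18b are shown as the mitotic kinesins with the smallest and the largest drop in shCdGAP replicate 1, Kifc1 for its 3 CCAAT boxes, and Kif18a as an expressed mitotic kinesin with neither motif. Capitals mark TTTGAA and CCAAT or their reverse complements TTCAAA and ATTGG, and the 2 CAGGTG matches of Kif18a are left in lower case.
Kif11 (chr19:37376182-37376411, plus strand): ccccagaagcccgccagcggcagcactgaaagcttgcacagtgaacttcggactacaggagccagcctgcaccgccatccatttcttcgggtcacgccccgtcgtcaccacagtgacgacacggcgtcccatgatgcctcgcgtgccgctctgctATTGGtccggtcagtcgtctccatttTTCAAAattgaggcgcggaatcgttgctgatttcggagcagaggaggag
Kif18b (chr11:102925095-102925324, minus strand): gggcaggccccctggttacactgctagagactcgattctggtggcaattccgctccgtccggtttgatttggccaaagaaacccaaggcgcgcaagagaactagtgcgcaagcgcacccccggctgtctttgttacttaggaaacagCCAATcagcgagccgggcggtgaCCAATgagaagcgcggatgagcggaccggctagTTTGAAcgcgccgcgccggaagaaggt
Kifc1 (chr17:33890604-33890833, minus strand): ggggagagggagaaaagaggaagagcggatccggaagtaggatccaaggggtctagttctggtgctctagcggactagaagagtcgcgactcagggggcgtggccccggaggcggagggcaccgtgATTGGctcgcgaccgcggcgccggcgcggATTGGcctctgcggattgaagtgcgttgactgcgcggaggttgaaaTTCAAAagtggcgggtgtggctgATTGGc
Kif18a (chr2:109280538-109280767, plus strand): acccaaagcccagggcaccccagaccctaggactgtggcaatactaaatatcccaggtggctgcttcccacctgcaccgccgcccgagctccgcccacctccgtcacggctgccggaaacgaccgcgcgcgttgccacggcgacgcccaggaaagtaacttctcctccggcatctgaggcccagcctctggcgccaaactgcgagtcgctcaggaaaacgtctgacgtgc

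The match to TTTGAA began at position -19 from the start in Kif11, at position 4 in Kif18b and at position 2 in Kifc1. In the mitotic windows not shown, the match nearest the start began at -19 in Kif15, -17 in Kif22, 3 in Kif23 and 8 in Kif20b. It began at 20 in Kif4, and further off at -103 in Kif2c and -228 in Kif14. In Kif11 its CCAAT box began at position -45. In Kif18b the CCAAT boxes began at positions -53 and -30, and in Kifc1 at positions -74, -45 and 25.

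Kif12 and Kif5c are shown because they were the 2 members called between the groups, described below, whose window held CAGGTG. Kif12 rose and Kif5c fell. The windows of the called members Kif26b and Kif27 lacked CAGGTG. Windows of the uncalled members Kif21a, Kif7, Kif16b, Kif18a and Kif20b held it, as did those of Kif1a and Kif2b, which were not tested. The called members Kif5a, Kifc3, Klc2 and Kif21b had no window to search. Capitals mark CAGGTG or its reverse complement CACCTG.
Kif12 (chr4:63172102-63172331, minus strand): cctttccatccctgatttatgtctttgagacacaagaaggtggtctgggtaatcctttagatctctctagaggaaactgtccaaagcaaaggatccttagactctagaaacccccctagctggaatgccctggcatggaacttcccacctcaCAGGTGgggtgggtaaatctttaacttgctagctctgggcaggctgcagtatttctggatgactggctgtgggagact
Kif5c (chr2:49619086-49619315, plus strand): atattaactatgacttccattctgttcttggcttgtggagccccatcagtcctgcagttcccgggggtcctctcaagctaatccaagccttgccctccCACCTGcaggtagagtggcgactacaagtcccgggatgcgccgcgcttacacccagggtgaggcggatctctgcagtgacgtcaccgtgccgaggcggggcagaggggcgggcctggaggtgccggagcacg

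The match in Kif12 began at position -48 and that in Kif5c at position -102.

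Of the 48 members, 38 had enough counts to be tested for a difference between shCdGAP and shCTL, and 8 were called at an adjusted p under 0.05 (edgeR quasi-likelihood test, Benjamini-Hochberg adjustment over all tested genes). That is 21.1% of the members, beside 21.7% of all 13483 tested genes, so the share of kinesins that changed was close to the background. The 4 that rose were Kif12, Kifc3, Kif27 and Klc2, beside 10.4% of all tested genes that rose. The 4 that fell were Kif5c, Kif21b, Kif26b and Kif5a, beside 11.4% of all tested genes that fell. The groups did not overlap for 14 of the 38 members (36.8%) and for 44.1% of all tested genes. The median log2 fold change was 0.13 over the tested members and 0.01 over all tested genes, and the members' median is the same with Kif26b at its bound. Every called member belonged to a class other than the mitotic kinesins. Without shCdGAP replicate 1, 16 of the 38 members were called (42.1%, beside 41.8% of all tested genes).

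**Figure D1:**
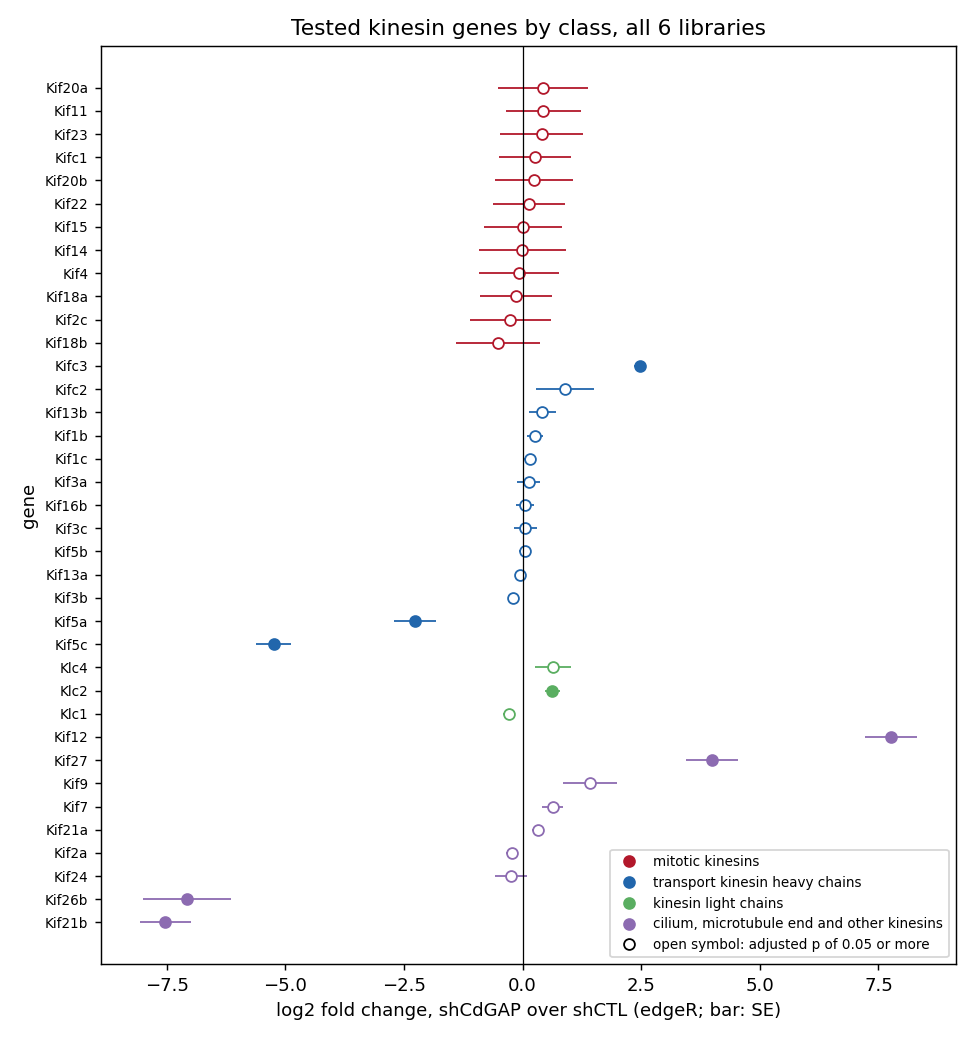
Log2 fold change (shCdGAP over shCTL, horizontal axis, bars are SE) of the 37 tested motors and light chains (vertical axis), coloured by class, with filled symbols for those called by edgeR over all 6 libraries. The 12 mitotic kinesins lie between -0.52 and 0.43 with wide bars, and the called members lie in the other classes. Kif26b had no counts in shCdGAP, so its plotted value depends on the prior count of the fit.

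Mitotic kinesins had 12 tested members and 0 calls in either direction, and their median log2 fold change was 0.08. No mitotic kinesin had an unadjusted p under 0.05, and DESeq2 called 0 of 12 as well, beside 28.5% of all tested genes that it called. The 3 shCdGAP libraries differed widely from each other. In shCdGAP replicate 1 all 12 tested mitotic kinesins were at their lowest of the 6 libraries, which held for 28.9% of all tested genes. In 11 of the 12 the level was at least 5-fold below every other library, which held for 2.38% of all tested genes. In shCdGAP replicates 2 and 3, 11 of the 12 were above every shCTL library (91.7%, beside 32.1% of all tested genes). In bulk RNA, fewer cells in mitosis and less kinesin mRNA in each cell cannot be told apart.

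The motors of the central spindle bundle microtubules between the separating chromosomes and set up cytokinesis. Among them, Kif23 and Kif20a were the most abundant mitotic kinesins per transcript length by their means over the 6 libraries. Kif23, the motor subunit of centralspindlin, averaged 61.8 FPKM (CPM per kilobase of transcript) over the 6 libraries, and Kif20a, which brings the chromosomal passenger complex to the midzone, averaged 54.0 FPKM. By group, the chromokinesin Kif22 averaged 52.1 FPKM in shCdGAP, below the 62.0 FPKM of Kif20a, and 47.4 FPKM in shCTL, above the 45.9 FPKM of Kif20a. In shCdGAP replicate 1 Kif22, at 6.56 FPKM, was also above Kif23 at 5.95 FPKM and Kif20a at 3.79 FPKM. Kif23 was at 20.4, 338 and 364 CPM in shCdGAP replicates 1 to 3, against 136, 203 and 209 CPM in shCTL replicates 1 to 3. Kif20a was at 14.4, 322 and 370 CPM in shCdGAP, against 122, 194 and 207 CPM in shCTL. For both genes shCdGAP replicate 1 was the low extreme, shCdGAP replicates 2 and 3 were the high extreme, and the shCTL libraries lay between them. Neither change was called (Kif23 log2 fold change 0.40 ± 0.87, SE, adjusted p = 0.792, and Kif20a 0.43 ± 0.95, SE, adjusted p = 0.793, edgeR). Kif20b and Kif14, which also act in cytokinesis, were less abundant, at means of 27.5 and 5.17 FPKM over the 6 libraries. They followed the same order, with shCdGAP replicate 1 at 17.5 and 3.58 CPM and the lowest shCTL library at 104 and 38.0 CPM.

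Among the motors that build the bipolar spindle, Kif11 slides antiparallel microtubules apart, Kif15 can back it up, and the minus-end motor Kifc1 opposes it. Kif11 was at 27.4, 347 and 294 CPM in shCdGAP, against 116, 195 and 184 CPM in shCTL. It showed the smallest drop of the 12, with shCdGAP replicate 1 at 4.21-fold below the lowest shCTL library, and it was not called (log2 fold change 0.43 ± 0.79, SE, adjusted p = 0.749, edgeR). Kifc1 was at 4.65, 53.5 and 47.0 CPM in shCdGAP, against 23.8, 29.0 and 34.7 CPM in shCTL, with both shCdGAP replicates 2 and 3 above all shCTL libraries. The count of Kifc1 is uncertain because the near-identical gene Kifc5b could share its fragments. Kifc5b moved in the same pattern, at 2.10, 29.4 and 25.2 CPM in shCdGAP, against 13.98, 18.9 and 16.4 CPM in shCTL.

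Among the motors of chromosomes and kinetochore microtubule ends, Kif22 and Kif4 are chromokinesins that bind chromosome arms, Kif18a dampens chromosome movements at the metaphase plate, Kif18b acts on astral microtubule ends, and Kif2c takes tubulin off microtubule ends to correct wrong attachments. Kif18b was at 4.83, 96.5 and 85.8 CPM in shCdGAP, against 69.8, 94.8 and 104 CPM in shCTL. It had the largest drop in shCdGAP replicate 1, 14.45-fold below the lowest shCTL library, and it was the 1 mitotic kinesin of the 12 whose shCdGAP replicates 2 and 3 were not both above every shCTL library. Kif22 was at 13.5, 153 and 156 CPM in shCdGAP, against 82.7, 102 and 109 CPM in shCTL. Kif18a, whose window held neither TTTGAA nor CCAAT, likewise had shCdGAP replicate 1 lowest and replicates 2 and 3 highest, at 5.59, 61.1 and 55.6 CPM in shCdGAP, against 32.4, 48.9 and 53.7 CPM in shCTL. Kif11 and Kif18b were singled out after their values were seen. Kif2b, the testis relative of Kif2c, had 0 counts in all 6 libraries, which allows up to 0.119 to 0.136 CPM per shCdGAP library and 0.109 to 0.155 CPM per shCTL library (3 counts).

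**Figure D2:**
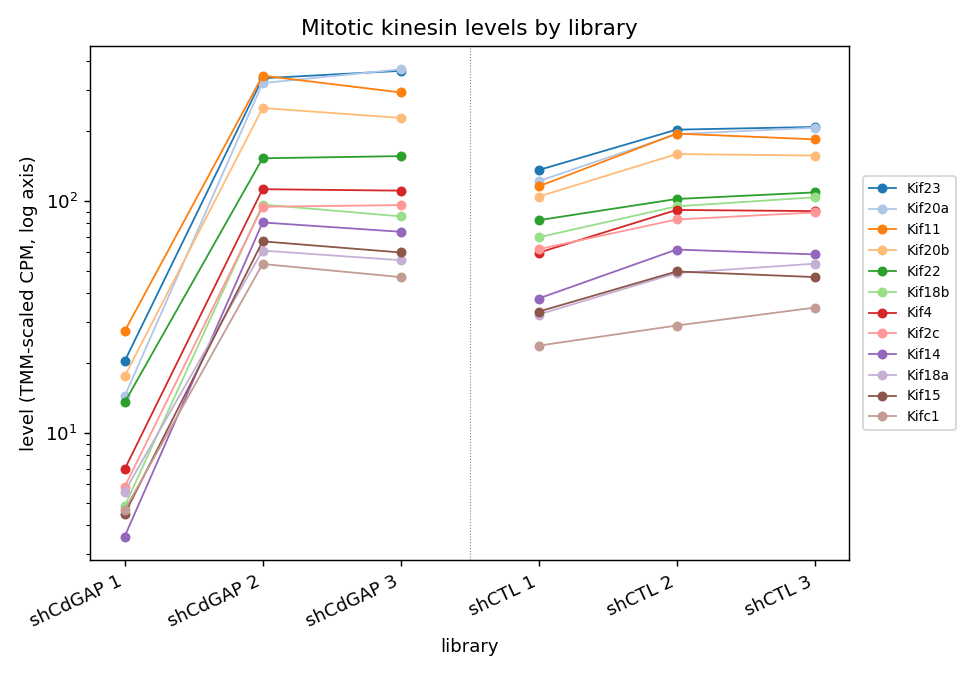
Level (CPM, log axis) of the 12 tested mitotic kinesins in each library (horizontal axis, shCdGAP left of shCTL), with lines joining the values of each gene across libraries that have no order of their own. All 12 lines are lowest at shCdGAP replicate 1, and their summed level there was 129.2 CPM.

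Summed over the 12 tested members, mitotic kinesins were at 129.2, 1977 and 1940 CPM in shCdGAP replicates 1 to 3, against 879.3, 1313 and 1343 CPM in shCTL replicates 1 to 3. The shCdGAP sums lay on both sides of the shCTL sums. Against the shCTL mean, the median log2 ratio was -3.22 in shCdGAP replicate 1, 0.64 in replicate 2 and 0.58 in replicate 3. The shCTL library numbered 1 was also the lowest of its group for all 12 (42.8% of all tested genes), at a median log2 ratio of -0.43 to the shCTL mean. Libraries of the same number deviated together over all genes, with correlations of 0.36, 0.29 and 0.25 for numbers 1, 2 and 3. These correlations depend on each other, since deviations from a group mean cancel out within the group. The values set number 1 apart but not 2 from 3, since shCdGAP replicate 2 correlated with shCTL replicate 3 at 0.25 and shCdGAP replicate 3 with shCTL replicate 2 at 0.19. Set against the shCTL library of the same number, the median log2 ratio was -2.82, 0.51 and 0.40, so the opposite directions were present within numbers too.

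**Figure D3:**
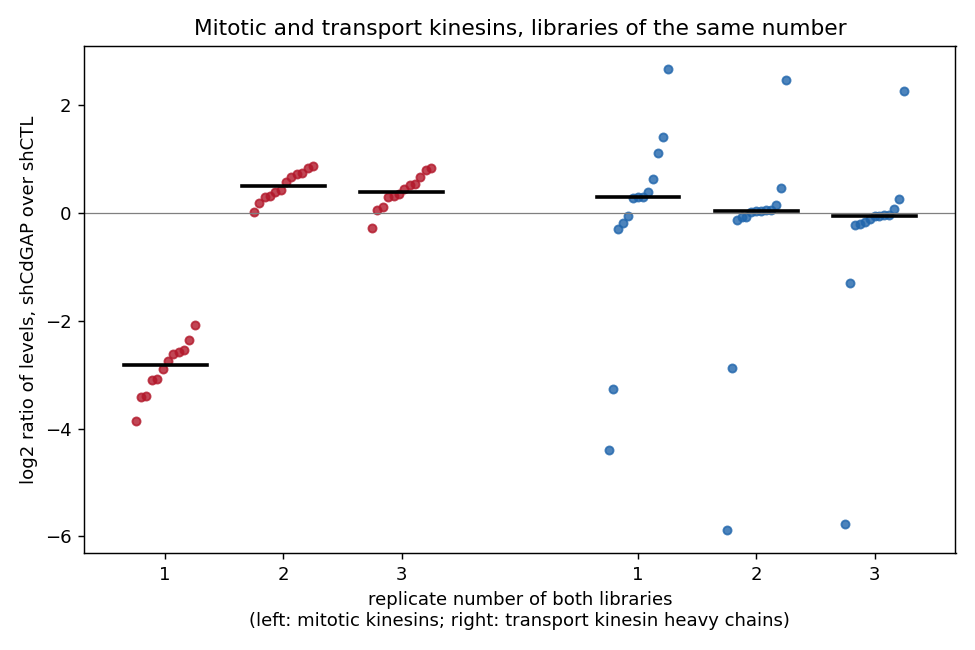
Log2 ratio of the shCdGAP level over the shCTL level of the same replicate number (vertical axis) for each tested mitotic kinesin (left) and transport kinesin heavy chain (right), with black lines at the medians. Mitotic kinesins sit at a median of -2.82 for number 1 and at 0.51 and 0.40 for numbers 2 and 3, whereas transport kinesins have medians of 0.30, 0.04 and -0.06.

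Without shCdGAP replicate 1, 8 of the 12 mitotic kinesins rose (66.7%, beside 19.9% of all tested genes that rose in that fit), 0 fell, and the median log2 fold change was 0.61. The 8 were Kif20a (log2 fold change 1.00 ± 0.20, SE, adjusted p = 0.00526, edgeR), Kif11 (0.97), Kif23 (0.96), Kifc1 (0.79), Kif20b (0.79), Kif22 (0.67), Kif15 (0.56) and Kif14 (0.56). Kif4 (0.48, adjusted p = 0.0525, edgeR), Kif18a (0.38), Kif2c (0.30) and Kif18b (0.04) were not called. Without both libraries numbered 1, 9 rose (beside 25.5% of all tested genes that rose there), with Kif4 joining the 8. The replicate number as a block gave 0 calls (beside 20.4% of all tested genes), but all 12 fitted values were then below 0 (median -0.47), and leaving out shCdGAP replicate 2 or 3 also turned the median negative (-0.31 and -0.25). The direction for this class over all 6 libraries therefore depended on which libraries entered.

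Of 21 spindle and midzone partners, such as the kinases Aurka, Aurkb and Plk1, the midzone proteins Prc1 and Racgap1 and the transcription factors Foxm1 and Mybl2, 1 rose and 0 fell (4.76%, beside 21.7% of all tested genes). The gene that rose was Numa1, the spindle pole protein, at 325, 296 and 268.5 CPM in shCdGAP, against 219, 221 and 221 CPM in shCTL (log2 fold change 0.43 ± 0.10, SE, adjusted p = 0.0303, edgeR). It lost its call under the replicate block and without shCdGAP replicate 2 or any shCTL library. Of the 21, 20 were lowest in shCdGAP replicate 1, with Numa1 the exception, beside 28.9% of all tested genes. In 17 of the 21 shCdGAP replicates 2 and 3 were both above every shCTL library, which held for 32.1% of all tested genes, and the exceptions were Mybl2, Aurkb, Cit and Ckap5. Their summed level was 742.3, 5341 and 5055 CPM in shCdGAP, against 2750, 3831 and 3893 CPM in shCTL, and without shCdGAP replicate 1 12 of them rose (57.1%, beside 19.9% of all tested genes). The kinetochore kinesin Cenpe, which the symbol rule leaves out, was at 12.9, 225 and 203 CPM in shCdGAP, against 125, 183 and 184 CPM in shCTL. Arhgap31 was lowest in shCdGAP replicate 1 as well, and the part of knockdown strength or of the share of dividing cells in these values was not tested.

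Transport kinesin heavy chains had 13 tested members, of which 1 rose and 2 fell (23.1%, beside the 21.7% of all tested genes), and their median log2 fold change was 0.06. None of the 13 was 5-fold or more below the other libraries in shCdGAP replicate 1, and 8 of them were at their highest of the 6 libraries there, which held for 33.6% of all tested genes. Their summed level was 1569, 1348 and 1291 CPM in shCdGAP, against 1273, 1271 and 1233 CPM in shCTL. The called members of this class were Kif5c, Kif5a and Kifc3.

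Conventional kinesin has 3 heavy chain genes, of which Kif5b is expressed in most tissues while Kif5a and Kif5c are best known from neurons. Kif5c (ENSMUSG00000026764, chr2:49619298-49774778, GRCm38, plus strand) was at 4.69, 2.09 and 2.10 CPM in shCdGAP, against 98.7, 123 and 115 CPM in shCTL. The groups were far apart, and the mean in shCdGAP was 38.0-fold lower (log2 fold change -5.25 ± 0.37, SE, adjusted p = 0.000426, edgeR). Kif5a (ENSMUSG00000074657, chr10:127225696-127263363, minus strand) was low in both groups, at 0.134, 0.227 and 0.476 CPM in shCdGAP, against 1.29, 1.67 and 1.17 CPM in shCTL. It fell (log2 fold change -2.26 ± 0.45, SE, adjusted p = 0.0151, edgeR) with no overlap between groups, on 20 counts in shCdGAP and 102 in shCTL. The call was lost without shCdGAP replicate 2 (adjusted p = 0.0653), shCTL replicate 1 (0.0514) or shCTL replicate 2 (0.0704, edgeR), and without shCdGAP replicate 3 the log2 fold change was -2.90 (adjusted p = 0.0106, edgeR).

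Kif5b, on chromosome 18, carried most of the conventional kinesin mRNA, at a mean of 40.7 FPKM over the 6 libraries, beside 8.07 FPKM for Kif5c and 0.131 FPKM for Kif5a. Its levels were 255, 321 and 343 CPM in shCdGAP, against 292, 307 and 287 CPM in shCTL. The shCdGAP libraries lay on both sides of the shCTL libraries, and Kif5b was not called (log2 fold change 0.05 ± 0.13, SE, adjusted p = 0.818, edgeR). Per length, Kif5c averaged 0.414 FPKM in shCdGAP and 15.7 FPKM in shCTL, whereas Kif5b averaged 41.4 FPKM in shCdGAP and 39.9 FPKM in shCTL. Neuron markers Snap25, Syt1, Rbfox3 and Map2 summed to 5.36 to 11.7 CPM in shCdGAP and 21.4 to 27.7 CPM in shCTL. Most of that sum was Map2, a microtubule-binding protein, which fell (log2 fold change -1.49 ± 0.34, SE, adjusted p = 0.0258, edgeR), and the part of neuron-like expression in the Kif5c and Kif5a values was not tested.

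Kifc3 (ENSMUSG00000031788, chr8:95099832-95142540, minus strand) encodes a minus-end motor that is known to act at epithelial adherens junctions and in apical transport. It was at 245, 214 and 186 CPM in shCdGAP, against 38.4, 38.6 and 38.6 CPM in shCTL. Every shCdGAP library was far above the shCTL libraries, which were nearly equal to each other. The mean was 5.58-fold higher in shCdGAP (log2 fold change 2.48 ± 0.13, SE, adjusted p = 0.000181, edgeR). Cdh1, which encodes the adherens junction protein E-cadherin, was at 859, 690 and 754 CPM in shCdGAP, against 173, 261 and 264 CPM in shCTL (log2 fold change 1.72 ± 0.19, SE, adjusted p = 0.00193, edgeR). The other minus-end motor of this class, Kifc2, was at 17.7, 5.85 and 3.57 CPM in shCdGAP, against 6.66, 4.26 and 3.65 CPM in shCTL. Only shCdGAP replicate 1 stood out for Kifc2, and it was not called (log2 fold change 0.90 ± 0.61, SE, adjusted p = 0.348, and -0.0235, adjusted p = 0.959, without that library, edgeR).

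Kif1c, a kinesin-3 motor of vesicles and the most abundant transport kinesin per length at 59.2 FPKM, was at 538, 418 and 402 CPM in shCdGAP, against 410, 403.5 and 412.5 CPM in shCTL. It was high in shCdGAP replicate 1 and similar in the other 5 libraries, with a log2 fold change of 0.15 ± 0.13 (SE, adjusted p = 0.488, edgeR) and of 0.0168 without that library (adjusted p = 0.881). Its relatives Kif1b, which carries mitochondria and vesicles, and Kif13a, Kif13b and Kif16b, which move endosomes and other membranes, were not called, with log2 fold changes between -0.06 and 0.42. The kinesin-2 genes Kif3a, Kif3b and Kif3c, which carry cargo in the cytoplasm and, for Kif3a with Kif3b, into cilia, were not called either. Their log2 fold changes were 0.13 for Kif3a, -0.20 for Kif3b and 0.06 for Kif3c. The neuronal Kif1a had 4 counts in shCdGAP and 4 in shCTL, and Kif17 had 13 in shCdGAP and 20 in shCTL, too few to test.

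**Figure D4:**
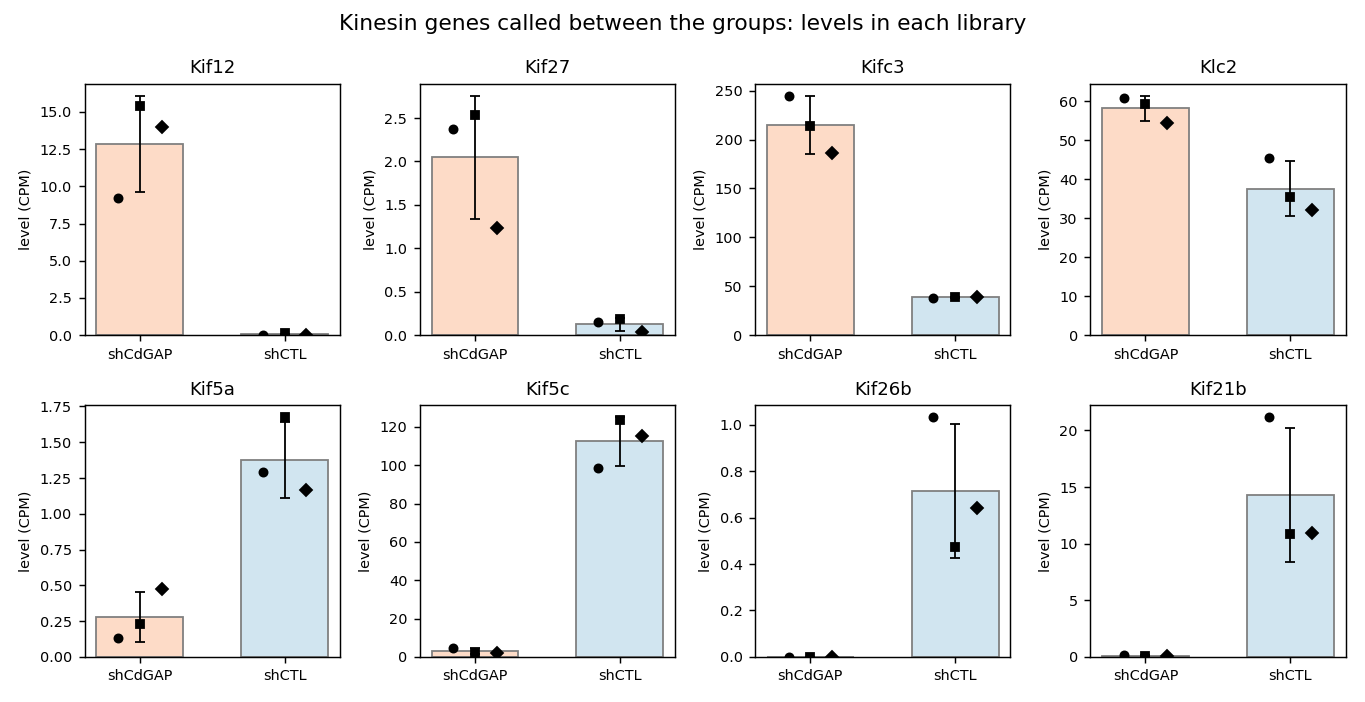
Level (CPM, vertical axes starting at 0) of the 8 called members in shCdGAP (left bar) and shCTL (right bar), with bars at the mean, whiskers at 1 SD (n = 3) and circle, square and diamond for replicates 1, 2 and 3. No called member has overlapping groups, and Kif5c averaged 2.96 CPM in shCdGAP and 112 CPM in shCTL.

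Light chains couple conventional kinesin to its cargo, and 1 of the 3 rose (33.3%, beside 10.4% of all tested genes that rose). Klc2 (ENSMUSG00000024862, chr19:5107746-5118560, minus strand) was at 60.7, 59.4 and 54.5 CPM in shCdGAP, against 45.4, 35.4 and 32.0 CPM in shCTL, so the groups were apart (log2 fold change 0.63 ± 0.16, SE, adjusted p = 0.0321, edgeR). The call was lost without shCdGAP replicate 2 (adjusted p = 0.0988) or 3 (0.0553), and without shCTL replicate 2 (0.136) or 3 (0.123, edgeR). Klc1, the most abundant light chain per length at 23.8 FPKM, was at 84.8, 90.3 and 87.4 CPM in shCdGAP, against 124, 100 and 95.5 CPM in shCTL. Its groups were also apart, in the other direction, but it was not called (log2 fold change -0.28 ± 0.13, SE, adjusted p = 0.165, edgeR). Klc4 was at 52.7, 26.7 and 18.0 CPM in shCdGAP, against 21.8, 19.4 and 20.99 CPM in shCTL, with shCdGAP replicate 1 far above the rest and replicate 3 below every shCTL library (log2 fold change 0.65, adjusted p = 0.28, edgeR). Without shCdGAP replicate 1 the log2 fold change of Klc4 was 0.12 (adjusted p = 0.604, edgeR). Klc3, which the symbol rule leaves out, was likewise highest in shCdGAP replicate 1, at 9.52, 2.49 and 1.67 CPM in shCdGAP, against 3.56, 3.38 and 2.63 CPM in shCTL.

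Kinesins of cilia, microtubule ends and other roles had 9 tested members, of which 2 rose and 2 fell (44.4%, beside 21.7% of all tested genes). Kif12 (ENSMUSG00000028357, chr4:63165634-63172131, minus strand) encodes a kinesin best known from epithelia of kidney and liver. It was at 9.21, 15.4 and 14 CPM in shCdGAP, against 0, 0.109 and 0.0376 CPM in shCTL. All shCTL libraries were at or near 0, with 4 counts together against 898 in shCdGAP, and the rise was the largest of the tested members (log2 fold change 7.76 ± 0.54, SE, adjusted p = 0.00042, edgeR). Without shCTL replicate 2, which held 3 of these 4 counts, it was 8.90 (adjusted p = 0.00309, edgeR). Kif27 (ENSMUSG00000060176, chr13:58287516-58354862, minus strand), needed for motile cilia in mouse, was at 2.37, 2.54 and 1.23 CPM in shCdGAP, against 0.155, 0.182 and 0.0376 CPM in shCTL. Its groups did not overlap either, on 140 counts in shCdGAP and 9 in shCTL (log2 fold change 3.995 ± 0.54, SE, adjusted p = 0.00397, edgeR).

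Kif21b (ENSMUSG00000041642, chr1:136131389-136177998, plus strand), a motor that restrains microtubule growth and is best known from neurons and lymphocytes, was at 0.134, 0.0453 and 0.0397 CPM in shCdGAP, against 21.2, 10.8 and 10.9 CPM in shCTL. It was near 0 in every shCdGAP library, with 5 counts in shCdGAP and 997 in shCTL, and the mean was 196-fold lower (log2 fold change -7.53 ± 0.54, SE, adjusted p = 0.00043, edgeR). Without shCdGAP replicate 1, which held 3 of these 5 counts, it was -8.21 (adjusted p = 6.05e-05, edgeR). Its paralogue Kif21a, known to act at the cell cortex, was the most abundant member of this class by its mean over the 6 libraries, 10.7 FPKM. By group, Kif21a averaged 11.9 FPKM and Kif2a 9.41 FPKM in shCdGAP, against 9.49 FPKM for Kif21a and 11.0 FPKM for Kif2a in shCTL, so Kif2a was the higher one in shCTL. Kif21a was at 88.2, 71.2 and 71.7 CPM in shCdGAP, against 65.6, 60.8 and 57.9 CPM in shCTL. Its groups did not overlap, but it was not called (log2 fold change 0.33 ± 0.13, SE, adjusted p = 0.116, edgeR).

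Kif26b (ENSMUSG00000026494, chr1:178529125-178932855, plus strand), needed for kidney development in mouse, had 0 counts in all shCdGAP libraries and 1.03, 0.473 and 0.640 CPM in shCTL. With 50 counts in shCTL and a floor of 3 counts over the shCdGAP group, its level was at least 15.8-fold lower in shCdGAP (adjusted p = 0.00972, edgeR). Its paralogue Kif26a had 2 counts in shCdGAP and 12 in shCTL and was not tested. Kif6 had 2 counts in shCdGAP and 21 in shCTL, and was called only in the fit with no filter on low counts (adjusted p = 0.0341, edgeR), in which 7.33% of all genes fell. Kif19a, a regulator of cilium length in mouse, and Kif28 had at most 3 counts in either group.

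Kif9, a kinesin of motile cilia, was at 7.87, 2.22 and 2.22 CPM in shCdGAP, against 1.19, 1.75 and 1.62 CPM in shCTL. The groups were apart, with replicate 1 highest, but the change was not called (log2 fold change 1.42 ± 0.56, SE, adjusted p = 0.127, edgeR). Without shCdGAP replicate 1 the log2 fold change of Kif9 was 0.55 (adjusted p = 0.12, edgeR). Kif7, which regulates hedgehog signalling at the cilium tip, was at 15.1, 12.2 and 10.03 CPM in shCdGAP, against 9.44, 7.46 and 7.19 CPM in shCTL. It was higher in all shCdGAP libraries and was not called by edgeR (log2 fold change 0.63 ± 0.21, SE, adjusted p = 0.0826), whereas DESeq2 called it (adjusted p = 0.0313). Kif2a, which takes tubulin off microtubule ends and averaged 10.2 FPKM, was at 56.9, 68.6 and 73.4 CPM in shCdGAP, against 81.2, 75.6 and 75.9 CPM in shCTL, with all shCdGAP libraries the lower ones (log2 fold change -0.23, adjusted p = 0.251, edgeR). Kif24, which restrains cilium assembly, was at 5.63, 14.96 and 12.1 CPM in shCdGAP, against 13.2, 13.0 and 12.5 CPM in shCTL, with only shCdGAP replicate 1 low (log2 fold change 0.0789 without it, adjusted p = 0.67, edgeR).

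Of the 4 members that are no motor or light chain, Kif1bp alone was tested, and it was not called (log2 fold change 0.22 ± 0.14, SE, adjusted p = 0.322, edgeR). Kif16bos had 1 count in shCdGAP and 5 in shCTL, and the pseudogenes Kif22-ps and Kif4-ps had 0 counts in every library, so no fragments were assigned to the copies of Kif22 and Kif4.

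Of 16 tested kinesin cargo adaptors, 2 rose and 1 fell (18.8%, beside 21.7% of all tested genes). Fez2 was at 91.9, 95.6 and 105.5 CPM in shCdGAP, against 65.5, 66.5 and 72.6 CPM in shCTL (log2 fold change 0.52 ± 0.10, SE, adjusted p = 0.0157, edgeR). Mapk8ip3, a scaffold that links kinesin-1 to vesicles, was at 106, 100.3 and 90.3 CPM in shCdGAP, against 75.5, 66.2 and 62.5 CPM in shCTL (log2 fold change 0.54 ± 0.12, SE, adjusted p = 0.022, edgeR). For both genes every shCdGAP library was above every shCTL library. Map7, which recruits kinesin-1 to microtubules, was low throughout and fell, with 6 counts in shCdGAP and 57 in shCTL (adjusted p = 0.0339, edgeR). Leaving out shCdGAP replicate 2, shCTL replicate 2 or shCTL replicate 3 left 0 adaptors called, and leaving out shCTL replicate 1 left 1. Calls over all genes dropped in these fits too, to between 1394 of 13629 tested and 1845 of 13786, beside 2930 over all 6 libraries. Leaving out shCdGAP replicate 1 gave 2 adaptors that rose and 5 that fell (43.8%, beside 41.8% of all tested genes).

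Of 22 tested subunits and partners of dynein and dynactin, the minus-end motor complex that works against kinesins, 2 rose and 1 fell (13.6%, beside 21.7% of all tested genes). Dync1li2, a dynein light intermediate chain, was at 187, 175 and 181 CPM in shCdGAP, against 127, 138 and 137 CPM in shCTL (log2 fold change 0.43 ± 0.09, SE, adjusted p = 0.0186, edgeR). Dctn6, a dynactin subunit, also rose (log2 fold change 0.57 ± 0.14, SE, adjusted p = 0.0311, edgeR), and the cargo adaptor Bicd1 fell (log2 fold change -0.65 ± 0.16, SE, adjusted p = 0.0344, edgeR). With the replicate block 1 of the 22 rose and 0 fell, beside 20.4% of all tested genes called. Without shCdGAP replicate 2 or any shCTL library 0 of the 22 were called. Calls over all genes were fewer there too, from 1394 of 13629 tested to 1845 of 13786, beside 2930 over all 6 libraries. Without shCdGAP replicate 1 7 of the 22 rose and 5 fell (54.5%, beside 41.8% of all tested genes).

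Of 11 tested tubulin genes, 0 were called by edgeR or by DESeq2 over all 6 libraries (edgeR called 21.7% of all tested genes), and 0 had an unadjusted p under 0.05 in edgeR. The most abundant per length were Tubb5, at 708, 2400 and 2363 CPM in shCdGAP, against 1102, 1455 and 1537 CPM in shCTL, and Tubb4b, at 84.9, 580 and 624 CPM in shCdGAP, against 516, 768 and 809.5 CPM in shCTL. Both were lowest in shCdGAP replicate 1, as were 9 of the 11 (28.9% of all tested genes), and similar copies within this family could share fragments. Without shCdGAP replicate 1, 5 of the 11 rose (45.5%, beside 19.9% of all tested genes) and 0 fell.

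Of 16 tested genes of intraflagellar transport and hedgehog signalling, the cilium pathway that Kif7 belongs to, 3 rose and 1 fell (25%, beside 21.7% of all tested genes). Smo, the signal transducer of the pathway, was at 115, 106 and 116 CPM in shCdGAP, against 76.3, 75.5 and 77.9 CPM in shCTL (log2 fold change 0.56 ± 0.09, SE, adjusted p = 0.00744, edgeR). Ift140 rose (log2 fold change 0.65 ± 0.16, SE, adjusted p = 0.0307, edgeR), and so did Gli3 (0.81 ± 0.22, SE, adjusted p = 0.0457, edgeR). Gli1, a transcription factor and target of the pathway, was at 0.0894, 0.181 and 0.278 CPM in shCdGAP, against 1.45, 0.655 and 0.828 CPM in shCTL, and fell (log2 fold change -2.34 ± 0.50, SE, adjusted p = 0.0204, edgeR). With the replicate block 3 of the 16 rose and 0 fell, beside 20.4% of all tested genes called. Without shCdGAP replicate 2 or any shCTL library 1 of the 16 was called. Over all genes these fits called from 1394 of 13629 tested to 1845 of 13786, beside 2930 over all 6 libraries. Without shCdGAP replicate 1 6 of the 16 rose and 1 fell (43.8%, beside 41.8% of all tested genes).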

How the data were processed

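RNA was sequenced from 3 shCdGAP and 3 shCTL libraries. The authors deposited raw fragment counts per gene. Per the file headers they came from featureCounts 1.4.6 on TopHat alignments with Ensembl release 77 (strand setting 2). Per the submitters' processing notes the build was GRCm38, and the tools named were TopHat2 2.0.14, Trimmomatic 0.30, CASAVA 1.8, DESeq and Cuffdiff 2.2.1. Symbols from GENCODE M21 matched 40340 of 41214 genes.

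All genes were fitted with edgeR 4.0.16 in R 4.3.3 (filterByExpr with minimum count 10 and minimum total 15, trimmed mean of M-values scaling, quasi-likelihood F test, Benjamini-Hochberg adjustment over 13483 genes), and called at an adjusted p under 0.05. The script was tested on simulated counts. Each log2 fold change sets shCdGAP over shCTL, and its SE was taken as its size over the square root of the F statistic. FPKM is CPM per kilobase of the deposited gene length. Adjusted p-values are edgeR's unless DESeq2 1.42.0 is named. Floors of 3 counts cover counting error only.

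The members and gene lists were chosen with earlier results of these data known. Values per library were given for called members with at least 1 CPM in the higher group and for the 2 most abundant of each kinesin class. They were also given for members whose log2 fold change reached 1 in size without a call. Of other lists, the 2 risen and 2 fallen genes with the smallest adjusted p were named, or the 2 most abundant where none passed. Genes named beyond this, such as other mitotic kinesins, Kifc2, Klc4, Kif7 and Kif24, and the printed promoters were chosen after their values were seen. Alternatives changed scaling, filter, tool and block, or left out libraries, and leaving out both libraries numbered 1 was chosen after seeing the data.

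The closest libraries, shCTL replicates 2 and 3, had a ratio of chi-square to degrees of freedom of 3.16, above sampling noise. All 6 libraries entered as replicates, although this ratio does not show that they are independent. Same-numbered libraries deviated from their group means together (correlations of 0.36, 0.29 and 0.25, all above the 0.1 set for pairing), so a fit with the number as a block was run as an alternative. shCdGAP replicate 2 with shCTL replicate 3 (0.25) and shCdGAP replicate 3 with shCTL replicate 2 (0.19) passed 0.1 too, so the data do not tell numbers 2 and 3 apart. Deviations from a group mean cancel out within the group, so these correlations depend on each other. Any pairing by number rests on the data alone, and the reported test has no block.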

Additional observations from a re-analysis of the deposited data

How the results depend on the processing

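Kif12, Kif27, Kif5c, Kif21b, Kif26b and Kifc3 kept their direction and their call under every alternative in which they were tested. Klc2 and Kif5a lost theirs only when a library was left out, as given above. Over the libraries left out in turn, the number called ran from 1394 of 13629 to 5785 of 13831 for all tested genes. It was 6 to 16 of 38 for the kinesin members, 0 to 8 of 12 for mitotic kinesins and 0 to 1 of 3 for light chains. For spindle and midzone partners it was 0 to 12 of 21, and for cargo adaptors 0 to 7 of 16. For dynein and dynactin it was 0 to 12 of 22, for tubulins 0 to 5 of 11 and for intraflagellar transport and hedgehog genes 1 to 7 of 16. Without both libraries numbered 1 (chosen after seeing the data), 7115 of 13625 tested genes were called. The counts were then 19 of 38 members, 9 of 12 mitotic kinesins and 15 of 21 spindle and midzone partners. In the same fit 8 of 16 adaptors, 14 of 22 genes of dynein and dynactin and 7 of 11 tubulins were called. Of intraflagellar transport and hedgehog genes, 9 of 16 were called. Keeping only genes with a mean of at least 10 CPM left 1695 of 9325 tested genes called. Of the lists, 3 of 31 members and 2 of 13 intraflagellar transport and hedgehog genes were called. In the cilium and microtubule end class 4 genes were tested and 0 were called. Kif12, Kif27, Kif21b, Kif26b and Kif5a fell below this filter and were not tested in it. DESeq2 called 3843 genes in all (28.5%) and 5 of 22 of dynein and dynactin. The fit with no filter called 2952 of 22322 genes in all and 1 of 13 tubulins.

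With the replicate block, 2745 genes were called in all (20.4%), 0 of 21 spindle and midzone partners and 1 of 22 genes of dynein and dynactin. It also ended the call of Gli1, and it changed the call of no kinesin member. The block turned 7 log2 fold changes negative: -0.39 for Kif22, -0.26 for Kif23, -0.55 for Kif15, -0.23 for Kifc1, -0.32 for Kif20a, -0.35 for Kif20b and -0.12 for Kif11, none of them called in either fit.

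Signs of uncalled members also turned elsewhere. Kif14 was at 0.0038 with RLE scaling, 0.0093 with no filter and 0.0043 with DESeq2. Without both libraries numbered 1 the log2 fold change was 0.37 for Kif14, 0.20 for Kif18a, 0.30 for Kif4, 0.15 for Kif2c, 0.0913 for Kif24, -0.0875 for Kif16b, -0.0108 for Kif13b and -0.10 for Kif3c. Over the libraries left out in turn it ran from -0.45 to 0.56 for Kif14, -0.55 to 0.38 for Kif18a, -0.45 to 0.48 for Kif4, -0.64 to 0.30 for Kif2c, -0.97 to 0.038 for Kif18b, -0.23 to 0.67 for Kif22, -0.0238 to 0.96 for Kif23, -0.42 to 0.56 for Kif15, -0.17 to 0.79 for Kifc1, -0.0482 to 1.00 for Kif20a, -0.18 to 0.79 for Kif20b and -0.033 to 0.97 for Kif11. In the other classes it ran from -0.53 to 0.0789 for Kif24, -0.14 to 0.19 for Kif16b, -0.14 to 0.28 for Kif3a, -0.21 to 0.22 for Kif3c, -0.0235 to 1.28 for Kifc2 and -0.0324 to 0.18 for Kif5b. Arhgap31 ran from -1.51 to -0.71 and was called without shCdGAP replicate 1 and, at -0.76, without both libraries numbered 1. The cause of these differences was not tested. For members with under 10 counts in a group, such as Kif12 and Kif21b, depth limits the precision of the fold.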
